A study of Mus musculus with 6 samples.

Results

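The genes examined here are the 13 protein-coding genes of the mouse mitochondrial genome and 20 nuclear genes whose products copy, transcribe or translate it. They were taken by gene symbol from a table of 35976 genes and were measured by RNA-seq in brown adipose tissue (BAT), the fat that burns fuel for heat. BAT came from 3 wild-type (WT) mice and 3 sST2-KO mice, male littermates 10 weeks old on a C57BL/6J background. sST2-KO mice carry a CRISPR/Cas9 deletion of the Il1rl1 intron that lies between exons 8 and 9, which removes the stop codon of soluble ST2 (sST2), a secreted form of the IL-33 receptor. The deletion is present in every cell of the mouse, so it is not specific to BAT. All 6 mice had also lost the sympathetic nerves of BAT by surgery, were kept at 30 °C for 7 days and were then exposed to 10 °C for 8 h, so the libraries hold neither an innervated nor an unexposed control. The comparison asks how BAT without neural input differed in the cold when sST2 was missing.

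Mitochondria keep a small circular genome that encodes 13 subunits of the respiratory chain, together with the rRNAs and tRNAs needed to make them. Every protein that reads this genome is encoded in the nucleus. A single-subunit polymerase, POLRMT, transcribes both strands from promoters opened by TFAM and TFB2M. The long transcripts are cut at tRNAs, given poly-A tails, stabilised by LRPPRC and SLIRP and translated by mitochondrial ribosomes with factors of their own. Brown adipocytes are rich in mitochondria and burn fuel through the respiratory chain and the uncoupling protein UCP1.

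Total counts lay between 8159442 and 12874809 per library. Levels are given as normalized CPM, the usual counts of a gene relative to the library total after TMM scaling, in the order of replicates 1, 2 and 3, and differences as the log2 fold change of sST2-KO against WT with its standard error (SE). A gene was called when the adjusted p of edgeR's quasi-likelihood test was under 0.05, and 9.1% of the 14542 genes tested were called lower and 10.5% higher. The targeted gene, Il1rl1, had 1.77, 1.79 and 0.740 CPM in WT and 3.83, 8.19 and 14.0 CPM in sST2-KO libraries. It was called higher (log2 fold change 2.56, SE 0.57, edgeR adjusted p = 0.0239), and a count per gene cannot tell sST2 from the membrane form. Ucp1, which defines brown adipocytes, lay between 5229 and 10522 CPM in WT libraries and between 153 and 1042 CPM in sST2-KO libraries. The summed level of 8 brown adipocyte markers was 8853 to 16538 CPM in WT and 397 to 2191 CPM in sST2-KO, with 7 called lower. Of 9 markers of all adipocytes 2 were called lower, with sums of 25716 to 31005 CPM against 7665 to 15450 CPM. Skeletal muscle markers, 15 genes of which 2 were called higher, summed to 69.8 to 1588 CPM in WT and to 4282 to 18267 CPM in sST2-KO. None of the markers of these 3 lists was at 0 in all libraries.

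Markers of other cells were summed in the same way. The sum of 10 macrophage markers was 892 to 1198 CPM in WT and 1580 to 6765 CPM in sST2-KO (2 called higher), and that of the 7 of 8 T cell markers that the table lists was 13.9 to 15.5 CPM against 123 to 151 CPM (6 called higher). The sum of 6 endothelial markers overlapped between the groups, at 1028 to 1275 CPM and 997 to 1570 CPM, with 1 called lower. Of 10 liver genes 4 passed the expression filter and 2 of these were called lower. The sums of all 10 were 4524 to 13302 CPM in WT and 4419 to 10960 CPM in sST2-KO. Alb, which defines liver, reached 3192 CPM in WT replicate 2 against at most 23.7 CPM elsewhere. The highest sST2-KO sum, in replicate 1, came with 1.39 CPM of Alb, so it rested on other genes of the list. The part of these shifts in the results on mitochondrial genes was not tested. In bulk tissue, fewer brown adipocytes and less RNA per brown adipocyte cannot be told apart.

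Among the 20 nuclear factors, 8 were called lower and 1 was called higher in sST2-KO BAT, against 9.1% and 10.5% of all genes tested. The 8 lower genes were Polrmt and Tfb2m of transcription, Lrpprc, Slirp and Fastk of RNA stability and Tufm, Tsfm and Gfm1 of translation elongation, and the higher gene was Polg2, a subunit of the DNA polymerase. The median log2 fold change of the 20 factors was -0.61 (quartiles -1.06 and -0.22), against 0.034 (quartiles -0.43 and 0.54) over all genes tested. In 11 factors all sST2-KO values were under all WT values, where 19.7% of all genes tested did so, and in 1 every sST2-KO library lay above, where 21.8% did so. With a change above 2-fold required as well, 6 factors were lower and 1 was higher, against 7.1% and 9.04% of all genes tested. The other 19 factors apart from Polg2 had a fitted change below 0 (48% of all genes tested), but Tfb1m, Ssbp1, Gfm2, Mrrf and Mtrf1 turned to between 0.03 and 0.19 with total counts, a scaling that moved the median of all genes from 0.034 to 0.29.

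**Figure D1:**
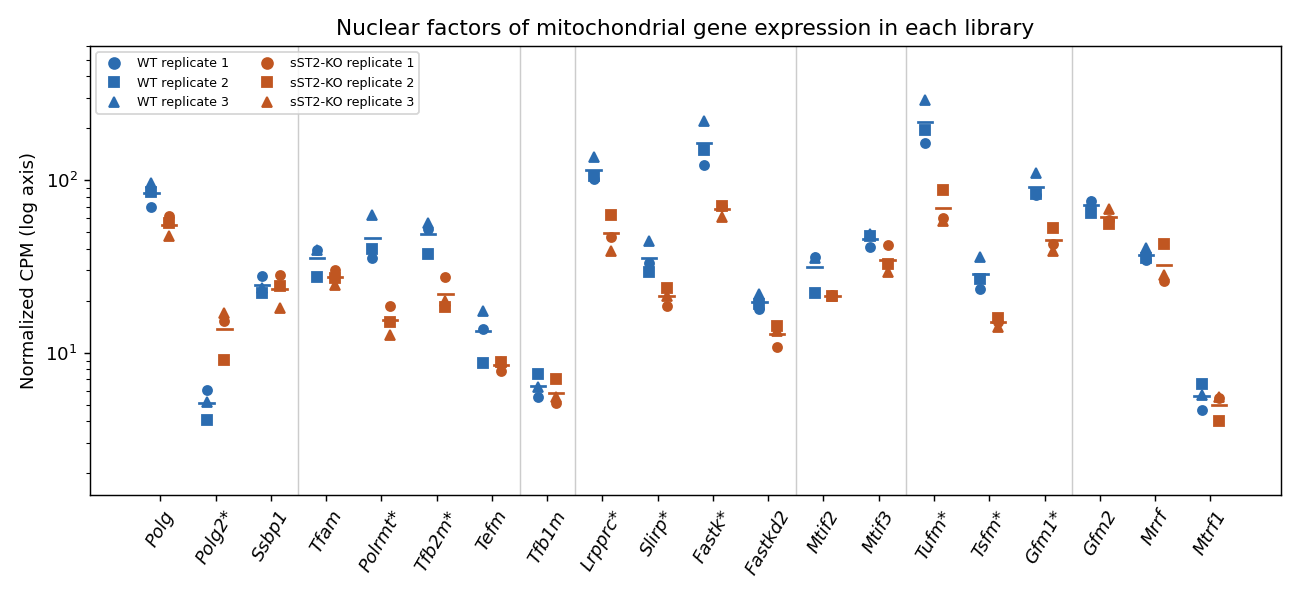
Normalized CPM (log axis) of the 20 nuclear factors in each of the 6 libraries, with a short line at each group mean, grouped by role from replication on the left to termination and recycling on the right. An asterisk marks the 9 genes called by edgeR. The sST2-KO points of Tufm (58.0 to 88.2 CPM) lie below all WT points (165 to 293 CPM), those of Polg2 lie above, and those of Ssbp1 and of the 3 genes at the right end mix with the WT points.

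In the transcription group, 2 of 4 factors were called lower. Polrmt, the RNA polymerase of mitochondria (GRCm39 chr10:79571957-79582420, minus strand), had 35.4, 39.9 and 63.0 CPM in WT and 18.5, 15.1 and 12.7 CPM in sST2-KO libraries. All sST2-KO values were under all WT values, and WT replicate 3 was the highest. The log2 fold change was -1.57 (SE 0.27, edgeR adjusted p = 0.0154). Tfb2m, the factor that lets the polymerase open a promoter (chr1:179355610-179374548, minus strand), had 52.0, 37.4 and 56.3 CPM in WT and 27.3, 18.5 and 19.8 CPM in sST2-KO libraries. The groups did not overlap, and Tfb2m fell by 1.15 on the log2 scale (SE 0.24, edgeR adjusted p = 0.0203). It shares 531 bp of exon with Cnst on the opposite strand, whose own log2 fold change was -1.52 (adjusted p = 0.0453), and it is not stated whether the counting used the strand to tell their reads apart.

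The other factors of this step were not called. Tfam, which packs mitochondrial DNA and bends its promoters, had 39.2, 27.5 and 39.5 CPM in WT and 30.04, 27.2 and 24.8 CPM in sST2-KO libraries. WT replicate 2 fell among the sST2-KO values, and the log2 fold change was -0.37 (SE 0.20, edgeR adjusted p = 0.229). Tefm, an elongation factor of the polymerase, had 13.8, 8.76 and 17.5 CPM in WT and 7.88, 8.78 and 8.89 CPM in sST2-KO libraries, and the fitted log2 fold change was -0.65 (adjusted p = 0.157). Its sST2-KO libraries were close together, and WT replicate 2 again lay among them. Tfb1m, which methylates the rRNA of the small ribosomal subunit, spanned 5.50 to 7.54 CPM in WT and 5.09 to 7.001 CPM in sST2-KO (log2 fold change -0.14, adjusted p = 0.751, and 0.12 with total counts). The paralogs Tfb1m and Tfb2m thus had fitted changes of different size, and the difference between them was not tested.

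Of the 4 genes of RNA stability and processing, 3 were called lower, and in all 4 the groups did not overlap. Lrpprc, which holds mitochondrial mRNAs in a stable form (chr17:85012670-85098279, minus strand), had 102, 106 and 136 CPM in WT and 46.8, 62.4 and 38.8 CPM in sST2-KO libraries. This was a log2 fold change of -1.21 (SE 0.23, edgeR adjusted p = 0.0176). Slirp, its binding partner (chr12:87490572-87506290, plus strand), had 32.9, 29.3 and 44.6 CPM against 18.6, 23.9 and 21.2 CPM. Its fall by 0.75 on the log2 scale (SE 0.22, edgeR adjusted p = 0.0493) was the smallest of the 8 and lost its call without any one of the 6 libraries, with an adjusted p of 0.0716 to 0.180. Slirp shares 3050 of its 5698 bp of exon with Snw1 on the opposite strand, whose own log2 fold change was 0.29 (adjusted p = 0.225).

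Fastk, the founding member of a family of RNA-binding proteins that mature mitochondrial RNA (chr5:24641746-24650298, minus strand), had 123, 149.7 and 221 CPM in WT and 70.7, 71.0 and 61.5 CPM in sST2-KO libraries. The sST2-KO libraries were close together and below all WT libraries, and the log2 fold change was -1.28 (SE 0.25, edgeR adjusted p = 0.0183). Of its 7868 bp of exon, 3669 are shared with Slc4a2 on the opposite strand (log2 fold change -0.55, adjusted p = 0.0653). Fastkd2, of the same family, had 18.0, 19.1 and 21.9 CPM in WT and 10.8, 14.4 and 13.3 CPM in sST2-KO libraries without overlap. Its log2 fold change of -0.62 missed the threshold in edgeR (adjusted p = 0.0767) and passed it in DESeq2 (adjusted p = 0.0487).

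In translation, all 3 elongation factors were called lower, neither of the 2 initiation factors was, and none of the 3 factors of termination and ribosome recycling was. Tufm, which brings aminoacyl-tRNA to the mitochondrial ribosome (chr7:126086511-126089903, plus strand), had 165, 196 and 293 CPM in WT and 60.3, 88.2 and 58.0 CPM in sST2-KO libraries. The groups were far apart, with means of 218 ± 66.7 CPM and 68.8 ± 16.8 CPM (SD, n = 3 each). Tufm had the largest fall of the 20 factors, with a log2 fold change of -1.66 (SE 0.29, edgeR adjusted p = 0.0154), which is 3.17-fold. Tsfm, which recharges the product of Tufm (chr10:126847441-126866717, minus strand), had 23.3, 26.9 and 36.0 CPM in WT and 15.1, 15.9 and 14.0 CPM in sST2-KO libraries. It fell by 0.93 on the log2 scale (SE 0.22, edgeR adjusted p = 0.0281), and shares 165 bp of exon with Avil on the opposite strand, which was higher in sST2-KO (log2 fold change 1.48, adjusted p = 0.0186). Gfm1, which moves the ribosome along the mRNA (chr3:67337425-67383863, plus strand), had 82.2, 83.3 and 110.2 CPM in WT and 42.9, 52.9 and 38.8 CPM in sST2-KO libraries. Its log2 fold change was -1.03 (SE 0.21, edgeR adjusted p = 0.0186), while Lxn, with which it shares 411 bp on the opposite strand, had 1.23 (adjusted p = 0.0309).

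The initiation factors showed smaller values. Mtif2, which places the first tRNA, had 35.8, 22.2 and 35.6 CPM in WT and 21.5, 21.4 and 21.3 CPM in sST2-KO libraries. The sST2-KO libraries were nearly equal and lay just below WT replicate 2, and the log2 fold change was -0.54 (SE 0.22, edgeR adjusted p = 0.126). Mtif3, which keeps the small ribosomal subunit free to start, overlapped between the groups (41.0 to 48.6 CPM against 29.2 to 41.9 CPM, log2 fold change -0.40, adjusted p = 0.182). The factors that release and recycle ribosomes overlapped in all 3 cases. Gfm2, a paralog of Gfm1 that acts in recycling, had 75.8, 64.3 and 74.8 CPM in WT and 58.8, 55.4 and 68.4 CPM in sST2-KO libraries (log2 fold change -0.24, adjusted p = 0.359). Mrrf, the recycling factor, spanned 34.5 to 40.2 CPM in WT and 26.0 to 42.6 CPM in sST2-KO, where replicate 2 held the highest of all values (log2 fold change -0.19, adjusted p = 0.580). Mtrf1, a release factor, spanned 4.66 to 6.597 CPM and 4.03 to 5.53 CPM (log2 fold change -0.17, adjusted p = 0.703), and all 3 turned above 0 with total counts. No difference between elongation and recycling factors was tested.

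Of the 3 factors that copy mitochondrial DNA, 1 was called higher and 0 were called lower. Polg2, the accessory subunit that holds the polymerase on DNA (chr11:106658823-106670384, minus strand), had 6.06, 4.05 and 5.18 CPM in WT and 15.3, 9.02 and 16.9 CPM in sST2-KO libraries. All sST2-KO values were over all WT values. The log2 fold change was 1.43 (SE 0.32, edgeR adjusted p = 0.0248), the only rise called among the 20 factors. Polg2 shares 509 of 6209 bp of exon with Milr1 on the opposite strand, a gene of myeloid and mast cells. Milr1 had 7.46, 5.47 and 3.70 CPM in WT and 16.3, 8.66 and 28.6 CPM in sST2-KO libraries (log2 fold change 1.68, adjusted p = 0.0442). The 2 genes had the same order among the sST2-KO libraries but not among the WT libraries, and the part of Milr1 in the counts of Polg2 was not tested. Polg, the catalytic subunit, had 70.0, 85.8 and 96.9 CPM in WT and 61.7, 56.2 and 47.5 CPM in sST2-KO libraries. The groups did not overlap, and the log2 fold change of -0.61 (SE 0.20) missed the threshold in edgeR (adjusted p = 0.0650) and passed it in DESeq2 (adjusted p = 0.0304). Ssbp1, which coats single-stranded mitochondrial DNA, was at 24.6 ± 2.87 CPM in WT and 23.5 ± 5.01 CPM in sST2-KO (SD, n = 3 each), and the fitted log2 fold change was -0.06 (adjusted p = 0.858) and 0.19 with total counts.

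**Figure D2:**
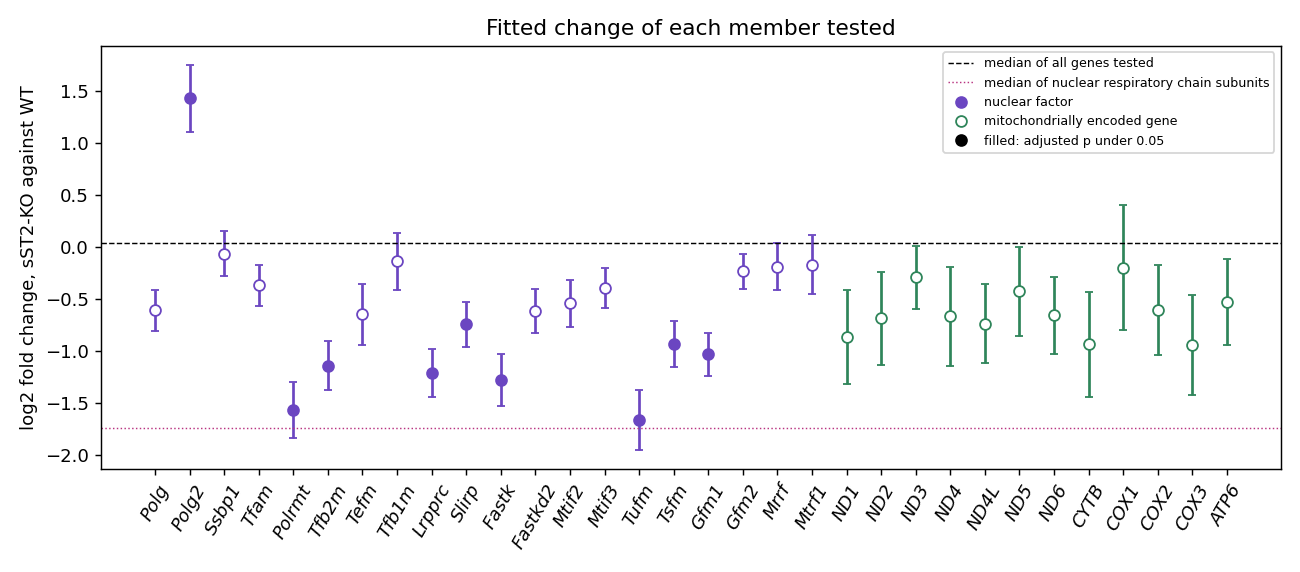
Fitted log2 fold change of sST2-KO against WT, with 1 standard error on each side, for the 32 genes that passed the expression filter. Filled points are called by edgeR at an adjusted p under 0.05. The nuclear factors range from -1.66 (Tufm) to 1.43 (Polg2), the encoded genes from -0.94 to -0.20 with wider errors and none filled, and the lines mark the medians of all genes tested (0.034) and of 73 nuclear respiratory chain subunits (-1.74).

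The promoters of the factors were read for 3 motifs known from nuclear genes of mitochondrial proteins. RefSeq promoters (GRCm38.p6, 250 bases before to 50 after the start) were at hand for 19 of the 20 factors, all but Mtif3. The ETS core CCGGAAG, the letters bound by GABP (also called NRF-2), was searched on both strands and stood in 11 of the 19, or 57.9%, against 15.7% of 13940 promoters of tested genes and 8.86% of all 32851 promoters. The full NRF1 motif, a palindrome of 10 bases searched letter for letter, which does not overlap the ETS core, stood in 0 of the 19 and in 0.971% of all promoters. The shorter NRF1 core TGCGCA, which reads the same on both strands and can overlap the end of the full motif, stood in 3 of the 19, or 15.8%, and in 7.76% of all promoters. The 3 promoters were those of Tfb2m, Polrmt and Fastk, all called lower, and no link between a motif and a call was tested. The shares of the NRF1 motifs among promoters of tested genes were not taken, so these values stand only against all promoters. The ETS core stood in 5 of the 8 factors called lower, in 5 of the 10 not called and in Polg2. Promoters of the polymerase gene, of the gene with the largest fall and of the gene that rose are shown, with the ETS core in capitals, which reads CTTCCGG where it lies on the other strand.
Polrmt (GRCm38.p6 chr10:79746532-79746831, minus strand): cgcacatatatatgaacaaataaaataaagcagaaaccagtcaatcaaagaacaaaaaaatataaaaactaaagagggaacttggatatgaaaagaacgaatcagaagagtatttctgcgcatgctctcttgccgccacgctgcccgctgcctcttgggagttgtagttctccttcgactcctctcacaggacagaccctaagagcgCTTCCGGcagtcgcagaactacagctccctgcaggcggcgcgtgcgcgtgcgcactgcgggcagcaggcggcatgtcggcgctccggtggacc
Tufm (GRCm38.p6 chr7:126487105-126487404, plus strand): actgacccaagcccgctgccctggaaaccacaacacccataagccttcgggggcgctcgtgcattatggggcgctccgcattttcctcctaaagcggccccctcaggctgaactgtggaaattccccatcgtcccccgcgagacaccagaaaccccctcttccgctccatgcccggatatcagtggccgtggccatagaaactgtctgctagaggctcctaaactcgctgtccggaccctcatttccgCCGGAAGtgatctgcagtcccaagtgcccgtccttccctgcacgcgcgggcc
Polg2 (GRCm38.p6 chr11:106779488-106779787, minus strand): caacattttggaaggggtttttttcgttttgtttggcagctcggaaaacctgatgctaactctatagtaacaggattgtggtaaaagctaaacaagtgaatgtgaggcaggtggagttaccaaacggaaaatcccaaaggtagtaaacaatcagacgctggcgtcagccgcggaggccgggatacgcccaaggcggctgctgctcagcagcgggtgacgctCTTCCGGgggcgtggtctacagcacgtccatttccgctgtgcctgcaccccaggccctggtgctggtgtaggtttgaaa
The core occurred 1 time in each of these windows. A match of letters does not show that a factor was bound there in BAT.

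The genes of the mitochondrial genome itself were not called by edgeR in either direction, and they gave 6.80% to 16.6% of all counts. Of the 13 encoded genes 12 passed the expression filter and 0 were called by edgeR's quasi-likelihood test. In that test 0 had an unadjusted p under 0.05, where 5269 of all 14542 genes tested did so. DESeq2 called 2 of the 12 lower, against 13% of all genes tested. It gave an unadjusted p under 0.05 to 4 of the 12 and to 5357 of the 14542 genes tested. In edgeR 8 had an unadjusted p under 0.05 with an offset for GC content and gene length, as did 5412 of 14542 genes tested. Without WT replicate 2 the number was 2, against 4407 of 14846 genes tested. Without sST2-KO replicate 2 it was also 2, against 4900 of 14977. In these fits 0 of the encoded genes were called. The fitted change was below 0 in all 12, with a median log2 fold change of -0.66 (quartiles -0.77 and -0.50), but COX1 turned to 0.05 with total counts and to 0.13 without sST2-KO replicate 3. That library was the lowest of the 6 in each of the 12 genes, and the median was -0.40 without it and -1.11 with the GC content and length offset. The offset was fitted on genes other than the encoded ones and then applied to them. In 1 of the 12, CYTB, all sST2-KO values were under all WT values, where 19.7% of all genes tested did so.

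COX1, the catalytic core of cytochrome oxidase (complex IV), had 78030, 68428 and 87205 CPM in WT and 74561, 96415 and 32503 CPM in sST2-KO libraries. The highest and the lowest of the 6 values were both from sST2-KO mice, and the log2 fold change was -0.20 (SE 0.60, edgeR adjusted p = 0.838). CYTB, the encoded subunit of complex III, had 25289, 19893 and 36062 CPM in WT and 15569, 19086 and 7753 CPM in sST2-KO libraries. The groups were separated only by the gap between WT replicate 2 and sST2-KO replicate 2, and the log2 fold change was -0.94 (SE 0.51, adjusted p = 0.227). DESeq2 gave CYTB an adjusted p of 0.0495. Among the 7 encoded subunits of complex I, ND1 had 16126, 11695 and 21087 CPM in WT and 9411, 11846 and 5562 CPM in sST2-KO libraries. The groups overlapped by a small margin, at WT replicate 2, with a log2 fold change of -0.87 (SE 0.45, adjusted p = 0.212 by edgeR and 0.0483 by DESeq2).

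The other complex I genes ranged from -0.74 in ND4L to -0.29 in ND3, with -0.69 in ND2, -0.67 in ND4, -0.66 in ND6 and -0.43 in ND5, and all overlapped between the groups. ND4 had 13050, 10778 and 18102 CPM in WT and 9657, 12067 and 4673 CPM in sST2-KO libraries, so that only sST2-KO replicate 2 reached into the WT range. ND5 had 8779, 7304 and 10662 CPM against 7717, 8543 and 3658 CPM, with 2 of 3 sST2-KO libraries above WT replicate 2. COX2 and COX3, the other encoded subunits of complex IV, had -0.61 and -0.94, and ATP6 of complex V had -0.53. ND6 is the only encoded protein gene read from the minus strand of the genome. It had 2909, 1898 and 3704 CPM in WT and 2144, 2014 and 1238 CPM in sST2-KO libraries, and the groups overlapped. Its 14 bp of overlap with ND5 at the end of both genes is the one place where an encoded protein gene shares bases with another on the opposite strand. The ratio of ND5 to ND6 was 3.02, 3.85 and 2.88 in WT and 3.60, 4.24 and 2.96 in sST2-KO libraries (p = 0.6, exact two-sided permutation test). Whether the counting used the strand is not given in the sources used here. RNA from the other strand could thus be among the counts of ND6, and its part in them and in this ratio was not tested.

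Several encoded genes have near-identical copies in nuclear chromosomes, and their counts were low. Positions 6390 to 11042 of the mitochondrial genome recur on chromosome 1 (GRCm39 chr1:24650616-24655269, minus strand) at 99.936% identity over 4654 aligned bases, with 2 mismatches. It is the longest of 14 such copies of at least 100 bp and 90% identity. Every 150-base window, the length of 1 read, of COX2, COX3, ATP6, ATP8 and ND4L was also found letter for letter in the nuclear genome. The share of such windows was 98.5% in ND3, 59.2% in ND4, 23.6% in COX1 and 0 in ND1, ND2, ND5, ND6 and CYTB. Per kb of gene, the 7 genes with under 90% of such windows had mean levels of 4264 to 47157 CPM and the other 6 had 0.455 to 776.5 CPM. The latter 6 make up 26.3% of the coding length but gave 0.708% to 1.09% of the encoded counts. COX1 had 60.7 times the level of COX2 per kb, although both are transcribed from the same strand. How the counting treated reads that fit several places is not given in the sources used here, and its part in these low counts was not tested.

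**Figure D3:**
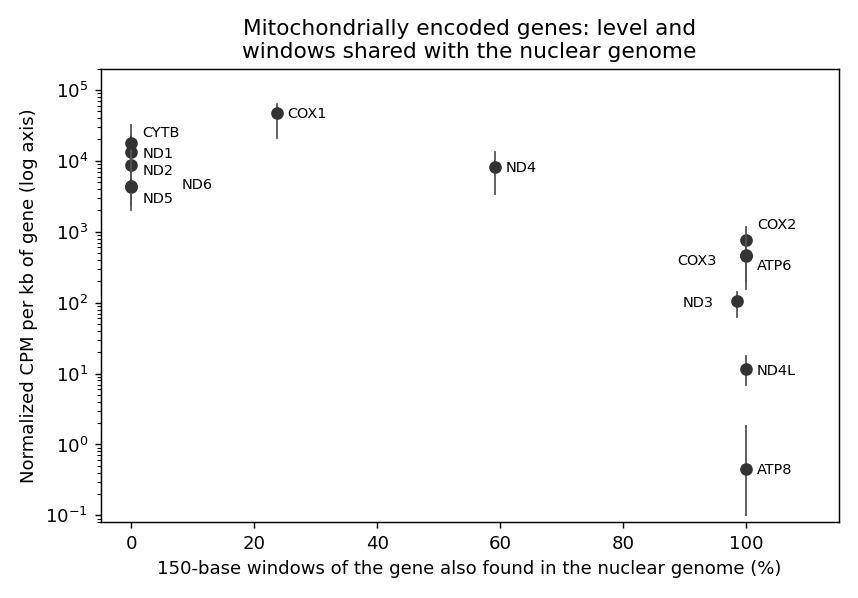
Mean normalized CPM per kb of gene over the 6 libraries (log axis) of the 13 encoded genes, against the percentage of their 150-base windows that also occur in the nuclear genome, with bars from the lowest to the highest library (drawn from 0.1 where the lowest is 0). The 7 genes with under 90% of shared windows lie at 4264 CPM per kb or above, and the 6 others at 776.5 CPM per kb or below.

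The edge of the chromosome 1 copy runs through ND4, which is why part of this gene is unique and part is not. The sequences around it are shown with the copied bases in capitals, 40 on each side of the edge.
ND4 in the mitochondrial genome (GRCm39 chrM:11003-11082, plus strand): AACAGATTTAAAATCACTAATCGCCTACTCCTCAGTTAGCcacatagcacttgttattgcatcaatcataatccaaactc
The same place on chromosome 1 (GRCm39 chr1:24650576-24650655, minus strand): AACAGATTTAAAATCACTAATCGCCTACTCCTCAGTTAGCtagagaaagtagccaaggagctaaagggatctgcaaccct
The 40 bases inside the copy are the same in both, and outside it 12 of 40 are. ATP8, a small subunit of complex V, lies wholly inside the copy and also shares its end with ATP6, and its whole gene is shown with the 43 bases shared with ATP6 in capitals.
ATP8 (GRCm39 chrM:7766-7969, plus strand): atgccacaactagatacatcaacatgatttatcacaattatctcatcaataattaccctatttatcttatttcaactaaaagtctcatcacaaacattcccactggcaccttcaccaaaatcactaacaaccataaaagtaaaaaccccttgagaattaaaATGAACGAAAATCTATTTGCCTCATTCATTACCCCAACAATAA
ATP8 had 1, 1 and 3 counts in the WT libraries and 0 in each sST2-KO library. Counts of 3 or fewer per library are at the floor used here, so no fold change is given, and the gene was removed by the expression filter.

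The make-up of the encoded counts was examined next, because a share within 1 library does not depend on how libraries are scaled to each other. COX1 held 49.6%, 53.2% and 45.3% of the encoded counts in WT and 58.6%, 60.04% and 54.3% in sST2-KO libraries, so all sST2-KO values were over all WT values. CYTB held 16.1%, 15.5% and 18.7% in WT and 12.2%, 11.9% and 12.9% in sST2-KO libraries, and ND4 held 8.29%, 8.38% and 9.40% against 7.59%, 7.51% and 7.80%, both without overlap in the other direction. These 3 differences gave p = 0.1 each (exact two-sided permutation test), the smallest value that 3 against 3 allows, as did ATP8 at the floor. With Benjamini-Hochberg adjustment over the 13 shares, the permutation p of each was 0.325. ND1 held 10.2%, 9.09% and 10.96% in WT and 7.39%, 7.38% and 9.29% in sST2-KO libraries, with an overlap at sST2-KO replicate 3 (p = 0.2, exact permutation test). Of the 13 shares, 1 was higher without overlap, 3 were lower without overlap, ATP8 at the floor among them, and 9 overlapped. Shares add up to 100, so a higher share of COX1 lowers the others by construction.

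The ratio of COX1 to CYTB puts the same shares in another form, for a pair of genes that differed in opposite directions above, and is given as a description. It was 3.09, 3.44 and 2.42 in WT and 4.79, 5.05 and 4.19 in sST2-KO libraries. Its mean was 2.98 ± 0.519 in WT and 4.68 ± 0.440 in sST2-KO (SD, n = 3 each), without overlap. The ratio of COX1 to ND1 was 4.84, 5.85 and 4.14 in WT and 7.92, 8.14 and 5.84 in sST2-KO libraries, where sST2-KO replicate 3 fell just below WT replicate 2. In sST2-KO replicate 3, where all encoded genes were low, the ratio to CYTB was still above all WT values.

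**Figure D4:**
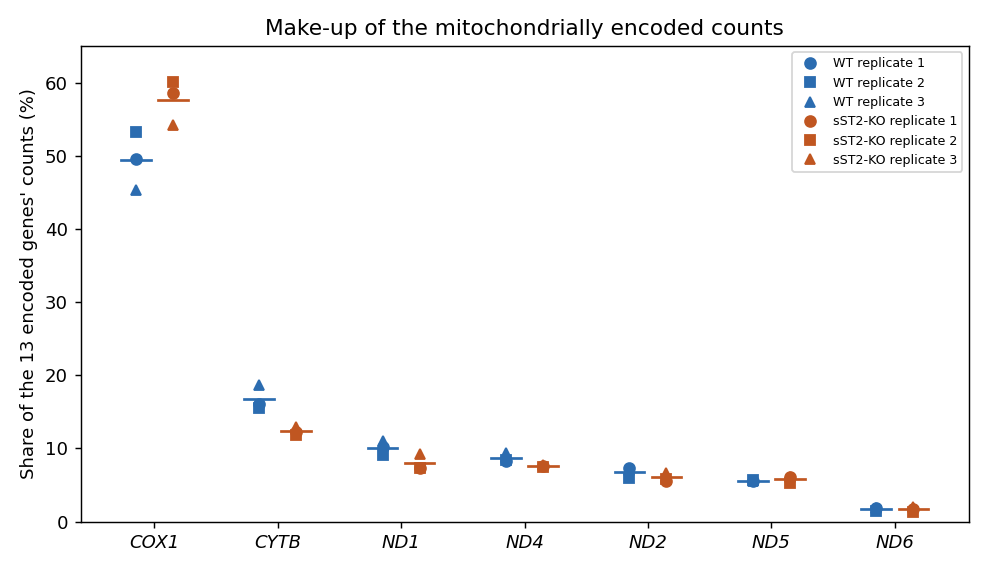
Share of the counts of all 13 encoded genes held by the 7 most abundant, in percent, for each library, with a line at each group mean. The sST2-KO points of COX1 (54.3% to 60.04%) lie above the WT points (45.3% to 53.2%), those of CYTB (11.9% to 12.9%) lie below (15.5% to 18.7%), and ND2, ND5 and ND6 overlap.

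The encoded genes and the nuclear factors were then set against each other within each library. The summed level of the 20 nuclear factors was 988, 1019 and 1376 CPM in WT and 613, 651 and 553 CPM in sST2-KO libraries, without overlap. The summed level of the 13 encoded genes was 157453, 128658 and 192484 CPM in WT and 127286, 160595 and 59898 CPM in sST2-KO libraries, and the groups overlapped. Encoded counts per count of the nuclear factors were 159, 126 and 139.8 in WT and 208, 247 and 108 in sST2-KO libraries, so the ratio was highest and lowest in sST2-KO mice. The median log2 fold changes of the encoded genes and the factors differed by -0.05, against a pooled SD of 0.44 between libraries for the difference of their mean log2 CPM. This difference rested on single libraries, at 0.21 without sST2-KO replicate 3 and -0.25 without sST2-KO replicate 2, and was -0.38 with the offset for GC content and gene length.

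Nuclear-encoded subunits of the respiratory chain, the partners of the encoded proteins, served as a comparator. Of 73 such genes 68 were called lower and 1 higher, with a median log2 fold change of -1.74 (quartiles -1.93 and -1.59). Their summed level was 32530, 41366 and 60258 CPM in WT and 14305, 15704 and 9330 CPM in sST2-KO libraries. The sum of the encoded genes was 4.84, 3.11 and 3.19 times that of these subunits in WT and 8.90, 10.2 and 6.42 times in sST2-KO libraries, so the groups did not overlap even though sST2-KO replicate 3 had the lowest encoded sum. The nuclear factors amounted to 3.04%, 2.46% and 2.28% of the subunits' sum in WT and 4.28%, 4.14% and 5.92% in sST2-KO libraries, also without overlap.

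**Figure D5:**
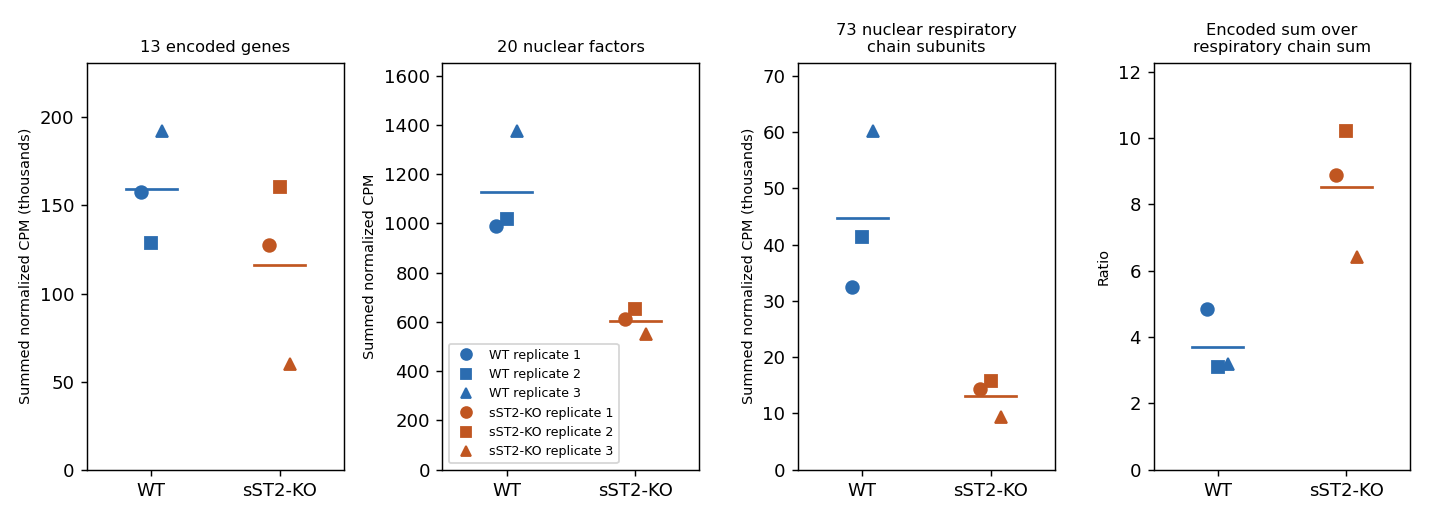
Summed normalized CPM of the 13 encoded genes, the 20 nuclear factors and the 73 nuclear respiratory chain subunits, and the ratio of the first to the third, for each library with a line at each group mean. The groups overlap for the encoded sum (128658 to 192484 CPM in WT, 59898 to 160595 CPM in sST2-KO), and do not overlap in the other 3 panels.

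The wider machinery around these factors was described with 5 lists holding 97 other genes, all of which passed the expression filter. In all, 32 of the 97 were called lower and 1 higher, with a median log2 fold change of -0.44, where 9.1% and 10.5% of all genes tested were called and the median was 0.034. Of 16 genes of mtDNA replication and maintenance, 4 were called lower and 1 higher, with a median of -0.07. Atad3a, a membrane protein at sites of mtDNA, fell from 208 ± 51.5 to 65.2 ± 19.4 CPM (SD, n = 3 each, log2 fold change -1.68, edgeR adjusted p = 0.0162). Top1mt, the mitochondrial topoisomerase, fell by 1.16 on the log2 scale (adjusted p = 0.0485), while Dna2, a nuclease that also works in the nucleus, rose from 2.63 ± 0.567 to 6.12 ± 0.775 CPM (log2 fold change 1.21, adjusted p = 0.0333). Among the 20 factors and these 97 genes, Polg2 and Dna2 were the only genes called higher by edgeR.

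Of 33 genes of RNA processing and stability, 12 were called lower and 0 higher, with a median log2 fold change of -0.63. Fastkd1, another member of the Fastk family, had 37.0, 17.1 and 50.3 CPM in WT and 13.5, 10.8 and 7.31 CPM in sST2-KO libraries (log2 fold change -1.72, edgeR adjusted p = 0.0302). Rnmtl1, now named Mrm3, which methylates the rRNA of the large subunit, fell by 1.65 on the log2 scale (adjusted p = 0.0198). Of 20 mitochondrial tRNA synthetases and related enzymes, 7 were called lower and 0 higher, with a median of -0.72. The summed level of these 20 overlapped between the groups, at 888 to 2223 CPM in WT and 1190 to 2355 CPM in sST2-KO. Cars2, the cysteine enzyme, had the largest fall of the list, with 126, 601 and 562 CPM in WT and 34.6, 80.9 and 38.7 CPM in sST2-KO libraries (log2 fold change -3.07, adjusted p = 0.0202), and WT replicate 1 was much lower than the other WT libraries. Gatb, part of the enzyme that makes glutaminyl-tRNA in mitochondria, fell by 1.13 on the log2 scale (adjusted p = 0.0390).

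Of 14 genes of translation and membrane insertion, 4 were called lower and 0 higher, with a median log2 fold change of -0.37. Letm1, an inner membrane protein of ion exchange that also touches mitochondrial ribosomes, fell from 185 ± 65.5 to 56.8 ± 12.6 CPM (SD, n = 3 each, log2 fold change -1.71, edgeR adjusted p = 0.0160). Taco1, which activates translation of the COX1 mRNA, had 13.1, 15.4 and 19.0 CPM in WT and 6.34, 9.49 and 5.43 CPM in sST2-KO libraries (log2 fold change -1.16, adjusted p = 0.0337). Of 14 nuclear regulators of mitochondrial biogenesis, 5 were called lower and 0 higher, with a median of -0.68. Ppargc1a, the cold-induced coactivator of mitochondrial genes, had 149.9, 252 and 171 CPM in WT and 20.4, 59.2 and 45.1 CPM in sST2-KO libraries, without overlap (log2 fold change -2.20, adjusted p = 0.0167). Sirt3, a mitochondrial deacetylase, fell by 2.22 on the log2 scale (adjusted p = 0.0135).

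The calls on the nuclear factors depended on single libraries. WT replicate 3 had the highest value of all libraries in each of the 8 factors called lower. Without it 0 factors were called in edgeR, where over all 15085 genes tested 22 were lower and 36 higher. An unadjusted p under 0.05 was then found for 9 factors and for 3797 of all genes tested. Without WT replicate 2, 4 factors were lower and 0 were higher, against 483 and 393 of all 14846 genes tested. Polrmt, Tufm and Lrpprc lost their call without WT replicate 3 alone, Gfm1 and Fastk also without WT replicate 2, and Tfb2m also without sST2-KO replicate 2 or 3. Tsfm kept its call without WT replicate 1 alone, and Polg2 without WT replicate 1 or sST2-KO replicate 2. No fitted change of the 9 called factors changed its sign with a library left out: Tufm stayed between -1.90 and -1.40, Polrmt between -1.74 and -1.29 and Polg2 between 1.25 and 1.64. The SEs of the log2 fold changes lay between 0.30 and 0.60 in the 12 encoded genes tested and between 0.17 and 0.32 in the 20 factors.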

How the data were processed

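BAT RNA of 3 WT and 3 sST2-KO mice was purified with poly-T beads, made into libraries with a NEBNext Ultra RNA kit and sequenced as 150 bp paired-end reads. Per the labels and the methods, the authors checked reads with FastQC 0.12.1, aligned them to mm39 with HISAT2 2.2.1 and counted them per gene with htseq-count, whose annotation, strand setting and treatment of reads with several matches are not given in the sources used here. The deposited table holds raw counts per gene symbol, and 0 columns were left unused. Each column was mapped to its sample by title. Total counts, by replicate number, were 10784814, 11597730 and 9841583 (WT) and 12874809, 8159442 and 8917874 (sST2-KO). Of 35976 genes 11377 had no count, and 27 symbols had become dates in a spreadsheet and stayed unnamed.

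Counts were analysed with edgeR 4.0.16 in R 4.3.3: filterByExpr kept 14542 genes, libraries were scaled by TMM (factors 0.825 to 1.14), and glmQLFTest compared sST2-KO with WT with no covariate and Benjamini-Hochberg adjustment. The SE of a log2 fold change was derived from this test, as the size of the change divided by the square root of the F statistic. The common biological coefficient of variation was 0.325. The study's methods name DESeq2, which was run as an alternative (1.42.0), as were RLE factors, total counts, scaling without the mitochondrial genes, no filter, at least 10 counts in every library, robust estimation, a block on the replicate number, an offset for GC content and length, and leaving out each library. The steps were tested on simulated counts. Single ratios and shares were compared by an exact two-sided permutation test, which cannot go below 0.1 with 3 against 3.

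The members and all lists were chosen with earlier results of these data known. All members were named, and from each of the 5 pathway lists the 2 largest falls and rises among called genes without overlap. Of the list genes 4 matched by an older symbol and Trac did not match. Between libraries of a group, chi-square over its degrees of freedom was 36.6 to 104, and no library was treated as a copy of another. Nuclear copies were found with BLAST 2.17.0 and by exact 150-base windows on GRCm39, with gene positions from GENCODE. Promoters are from RefSeq (GRCm38.p6). Figures were drawn with matplotlib 3.10.9.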

Additional observations from a re-analysis of the deposited data

How the results depend on the processing

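With a replicate block, 0 nuclear factors were lower and 0 higher, and the adjusted p of the 9 called factors rose to between 0.0667 and 0.102. Over all genes 0 were then called in edgeR, with 4623 at an unadjusted p under 0.05, and 2 residual degrees of freedom remain. Deviations of same-numbered libraries correlated at -0.06, 0.22 and -0.32 for replicates 1, 2 and 3. Those of the other pairs of a WT and an sST2-KO library correlated at -0.37 to 0.35. With 3 libraries per group these values cannot show whether same-numbered libraries shared a batch, and this was not tested. With a library left out, 0 to 7 factors were lower and 0 to 1 higher. Over all genes, 14742 to 15085 were tested in these fits, with 22 to 1189 lower and 36 to 1502 higher. DESeq2 called 2 encoded genes lower, ND1 (-0.89) and CYTB (-0.96). Total counts brought the factors' median log2 fold change from -0.61 to -0.34 and turned COX1 (0.048), Tfb1m (0.12), Ssbp1 (0.19), Gfm2 (0.031), Mrrf (0.065) and Mtrf1 (0.10) above 0, a scaling that shifts all genes upward. With a library left out, COX1 lay between -0.56 and 0.13, turning without sST2-KO replicate 3, and Ssbp1 between -0.21 and 0.084, turning there and without WT replicate 1 (0.028). The causes of the other changes were not tested. Slirp lost its call with total counts, with no filter and with at least 10 counts in every library, and Tsfm with total counts. Polg and Fastkd2 gained one in DESeq2, and Mtif2 with the GC content and length offset (adjusted p = 0.0345, edgeR). With RLE factors, scaling without the mitochondrial genes and robust estimation, all 32 genes tested kept their direction and their side of the threshold. Leaving out a library gave the encoded genes a median between -0.92 and -0.40. The lowest counts of encoded genes were in ATP8, at 3 or fewer, and ND4L, at 21 to 51, both wholly inside the nuclear copy, and the part of depth in them was not tested.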
